A study of Homo sapiens with 9 samples.

Results

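The genes described here are 10 heat shock chaperone genes of the cytosol and the mitochondrial matrix: HSPA8, HSPA1A, HSPA1B, HSPH1, DNAJB1, DNAJA1, HSP90AA1, HSP90AB1, HSPD1 and HSPE1. They were chosen by symbol, with earlier results of these data known, and are 10 of the 25540 symbols in the table. All 10 passed the filter for testing, a mean TPM of at least 1, as did 10939 symbols in all. TPM (transcripts per 1000000) is the share of a library that a transcript takes after its reads are divided by its length, so levels of different genes can be set side by side.

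The study sequenced RNA from CAL-1, an established human cell line of BPDCN (blastic plasmacytoid dendritic cell neoplasm), after knockdown of KHSRP by CRISPR interference, in which guide RNAs direct a repressor to a gene's start. KHSRP binds RNA through its KH domains and is known for speeding the decay of AU-rich mRNAs. There were 9 libraries, 3 each of a control labelled NTC, whose genotype is given as WT, and of the knockdown groups KHSRPi#1 and KHSRPi#2. What #1 and #2 stand for, which repressor was used and whether the lines are clones or pools is not stated in the labels. No treatment, heat or otherwise, is named for any group. KHSRP measured 253, 244 and 216 TPM in control replicates 1, 2 and 3, and 33.7 to 36.5 TPM in the 6 knockdown libraries. Of 12 plasmacytoid dendritic cell markers 11 were above 0, and IL3RA was listed at 0 in all libraries. SLC25A6 and H3F3A, genes that nearly all cells use, were also listed at 0, so a 0 in this table can be a failed estimate. T cell, erythroid and granulocyte markers each summed to at most 0.164 TPM, and epithelial or fibroblast markers to 0.210 to 0.586 TPM. The 3 replicate 3 libraries, 1 of each group, stood apart from the other 6 on principal component 1 (38.3% of the variance). The knockdown was therefore tested both without and with a term for replicate 3.

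Heat shock proteins hold unfolded proteins and help them fold. In the cytosol, J-domain proteins (DNAJB1, DNAJA1) hand clients to HSP70 (HSPA8, HSPA1A, HSPA1B), the HSP110 protein HSPH1 exchanges the nucleotide on HSP70, and HSP90 (HSP90AA1, HSP90AB1) takes over clients such as kinases and steroid receptors. In mitochondria, the HSPD1 barrel closes with its lid, HSPE1. HSPA8 and HSP90AB1 are known as constitutive forms, while HSPA1A, HSPA1B, DNAJB1 and HSP90AA1 are known for strong induction by heat shock factor 1 (HSF1), which binds repeated GAA and TTC units in their promoters.

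These heat shock elements are shown because windows of 5 members hold the full repeat and few other promoters do. Windows of 300 bases (250 before to 50 after a start site) were taken from RefSeq on GRCh38.p14, and all 10 genes matched, with 16 windows. The 2-unit motif was GAANNTTC or TTCNNGAA, and the 3-unit motif adds 2 free bases and another alternating unit; both strands were searched, and every 3-unit match contains 2-unit matches. Capitals mark the matched units, and each line reads 5′ to 3′ on the gene's strand.
HSPA8, chr11:123062346-123062374, minus strand: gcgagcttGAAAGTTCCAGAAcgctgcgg
HSPA8, chr11:123062171-123062199, minus strand: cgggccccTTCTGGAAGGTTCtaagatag
DNAJA1, chr9:33025268-33025296, plus strand: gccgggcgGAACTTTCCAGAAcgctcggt
HSP90AA1, chr14:102087112-102087140, minus strand: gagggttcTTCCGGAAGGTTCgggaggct
HSP90AB1, chr6:44247770-44247798, plus strand: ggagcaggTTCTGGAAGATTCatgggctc
HSP90AB1, chr6:44247823-44247851, plus strand: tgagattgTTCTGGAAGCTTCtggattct
HSPD1, chr2:197500062-197500090, minus strand: gcattTTCTGGAAAGTTCTGGAAccgagc
HSPA1A, chr6:31815426-31815455, plus strand: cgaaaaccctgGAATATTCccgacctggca
HSPA1B, chr6:31827622-31827651, plus strand: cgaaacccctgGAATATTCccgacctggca

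The 3-unit motif was found in windows of 5 members: HSPA8, DNAJA1, HSP90AA1, HSP90AB1 and HSPD1. It was in 5 of the members' 16 windows, in 0.49% of the 35116 windows of all genes and, counted by gene, in 0.608% of 27305 genes. The 2-unit motif was in windows of 8 members, in 9 of their 16 windows, in 13.5% of all windows and in 16.2% of all genes. HSPA1A and HSPA1B held only the 2-unit form, as did DNAJB1, and no match lay in the windows of HSPH1 or HSPE1. In DNAJA1 the match starts 4 bases past the start site, in the transcribed part. HSP90AA1, HSP90AB1, HSPD1 and DNAJB1 have windows at different start sites, and not every window of these genes holds a match. Which start site CAL-1 cells use was not examined. The windows of HSPD1 and HSPE1 overlap on opposite strands of chromosome 2, and the HSPE1 window begins at base 197500129, past the HSPD1 match. A match describes letters and is not a measured binding site.

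CAL-1 cells carried transcripts of both cytosolic HSP90 genes, HSPA8 and HSPD1 at very high levels and the inducible HSP70 transcripts at low levels. HSP90AB1 (mean 3241 TPM over 9 libraries), HSPA8 (3134 TPM), HSP90AA1 (2647 TPM) and HSPD1 (1889 TPM) ranked 49, 50, 62 and 81 among all symbols. DNAJA1 followed at 544 TPM, HSPH1 at 222 TPM, HSPE1 at 134 TPM and DNAJB1 at 70.0 TPM. At the bottom were HSPA1A at 9.95 TPM and HSPA1B at 7.37 TPM, at percentiles 31.2 and 24.7 of the tested genes. The libraries of HSP90AB1 and HSPA8 overlapped in level, as did those of HSPA8 and HSP90AA1, while the other neighbours in this order did not overlap. Together the 10 genes took 1.05% to 1.32% of each library's TPM. Annotation names 17 HSPA8, 6 DNAJA1, 5 HSP90AB1, 4 HSP90AA1 and 1 DNAJB1 pseudogenes. Of these only 1 each for HSP90AB1 and DNAJA1 is among the symbols. How shared reads were assigned is not given, so the levels of these genes are uncertain too.

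**Figure D1:**
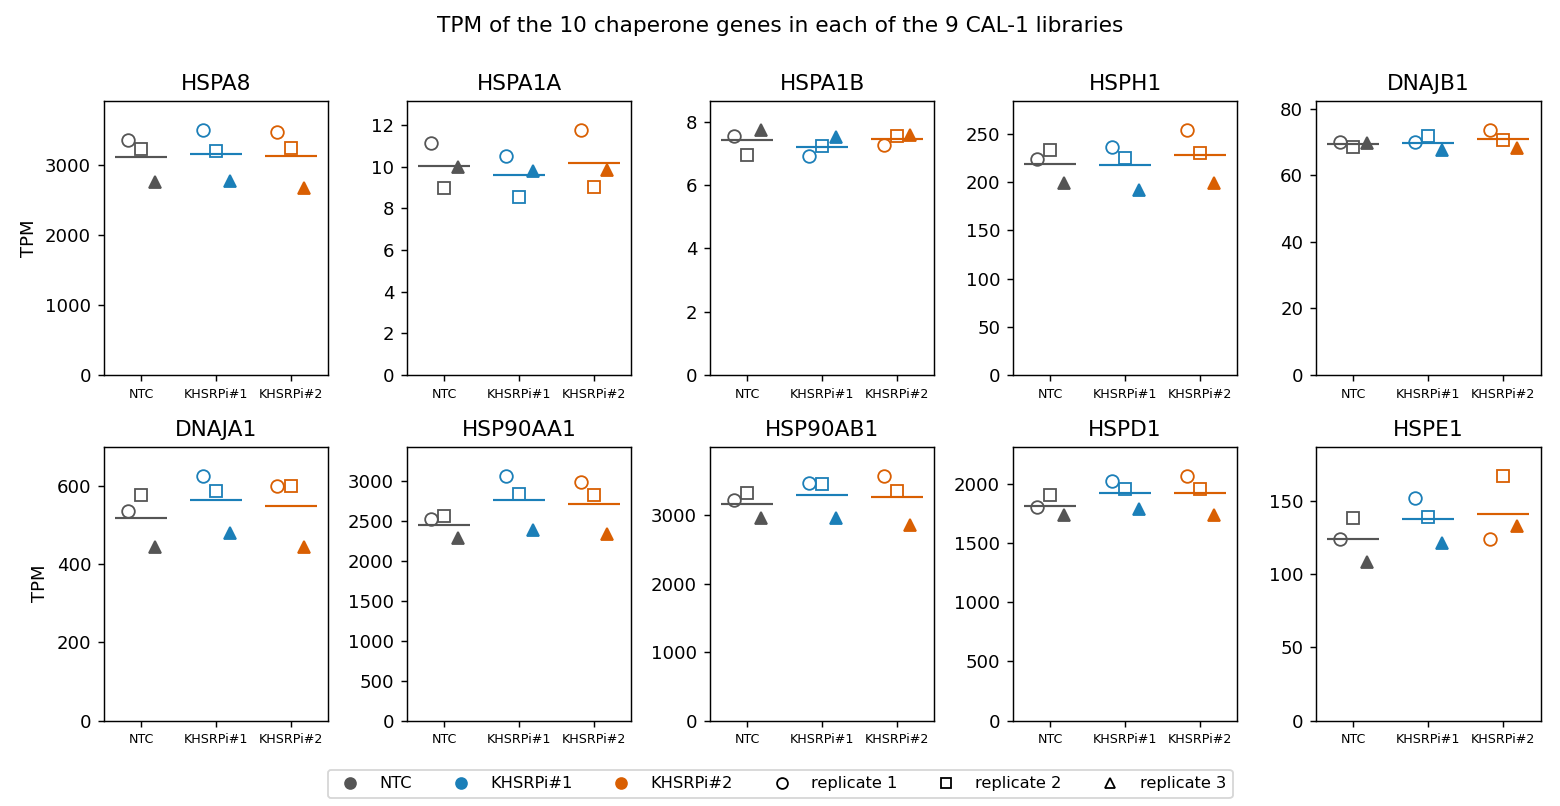
TPM (y axes from 0, a scale for each gene) of the 10 chaperone genes in 3 control (NTC), 3 KHSRPi#1 and 3 KHSRPi#2 libraries; shapes give the replicate number, replicate 3 is filled and lines are group means. HSPA8, HSPH1, DNAJA1, HSP90AA1, HSP90AB1 and HSPD1 have their replicate 3 library lowest in each of the 3 groups, and no gene has its 6 knockdown libraries apart from the controls.

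HSPA8, the constitutive cytosolic HSP70, lies on chromosome 11 (123057489 to 123063230, minus strand, GENCODE 29 on GRCh38). It measured 3365, 3223 and 2761 TPM in control replicates 1 to 3, 3495, 3196 and 2776 TPM in KHSRPi#1 and 3477, 3242 and 2674 TPM in KHSRPi#2. The group means were 3116 ± 316, 3156 ± 361 and 3131 ± 413 TPM (SD, n = 3 each). The groups covered the same range, and within each group replicate 1 was highest and replicate 3 lowest. The log2 fold change of the mean of both knockdown groups against control was 0.01 (95% interval -0.20 to 0.22, limma adjusted p = 0.987), and with the replicate 3 term the interval was -0.07 to 0.09.

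HSPA1A and HSPA1B, the stress-inducible HSP70 genes, are neighbours on chromosome 6 (31815464 to 31817946 and 31827735 to 31830255, both plus strand). HSPA1A measured 11.1, 8.98 and 10.01 TPM in the controls, 10.5, 8.55 and 9.81 TPM in KHSRPi#1 and 11.7, 9.03 and 9.83 TPM in KHSRPi#2. HSPA1B stayed between 6.92 and 7.73 TPM in all 9 libraries, below every HSPA1A library. HSPA8 was 272 to 374 times HSPA1A in the same library. Over the longest open reading frames the transcripts of HSPA1A and HSPA1B differ at 4 of 1926 bases (99.8% identity), so the split of reads between them is uncertain, and how the authors assigned shared reads is not given. Their sum was 15.9 to 18.7 TPM in the controls and 15.8 to 19.0 TPM with knockdown. Neither gene passed the test for knockdown (log2 fold changes -0.02 and -0.01, limma adjusted p = 0.972 and 0.975, and 0.932 and 0.934 with the replicate 3 term).

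HSPH1, the HSP110 exchange factor (chromosome 13, 31134974 to 31162388, minus strand), measured 224, 234 and 199 TPM in the controls, 236, 225 and 192 TPM in KHSRPi#1 and 254, 230 and 199.7 TPM in KHSRPi#2. Its knockdown and control ranges overlapped (log2 fold change 0.02, 95% interval -0.17 to 0.22, limma adjusted p = 0.969, and 0.806 with the replicate 3 term). It kept within a narrow proportion of HSPA8, its partner, which was 13.4 to 15.0 times as abundant in all libraries.

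Among the J-domain genes, DNAJB1, the inducible HSP40 (chromosome 19, 14514770 to 14529770, minus strand), had the smallest coefficient of variation of the members, 2.56%, at 67.7 to 73.5 TPM over all 9 libraries. DNAJA1, which serves HSPA8 (chromosome 9, 33025211 to 33039907, plus strand), measured 537, 576 and 443 TPM in the controls, 626, 587 and 479.8 TPM in KHSRPi#1 and 600.8, 600.0 and 445 TPM in KHSRPi#2. Both knockdown libraries were above the control of the same replicate number for DNAJA1 in all 3 numbers. In replicate 3 the KHSRPi#2 library was barely above the control (445 against 443 TPM), and the groups overlapped because of the spread between numbers. Its log2 fold change was 0.10 (95% interval -0.17 to 0.36, limma adjusted p = 0.879), and with the replicate 3 term the interval was 0.02 to 0.17 (limma adjusted p = 0.177).

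HSP90AA1 and HSP90AB1 encode the inducible and the constitutive cytosolic HSP90 (chromosome 14, 102080738 to 102139699, minus strand, and chromosome 6, 44246166 to 44253888, plus strand). HSP90AA1 measured 2523, 2561 and 2285 TPM in the controls, 3066, 2846 and 2386 TPM in KHSRPi#1 and 2996, 2822 and 2342 TPM in KHSRPi#2. Replicates 1 and 2 of both knockdown groups were above all controls, while the replicate 3 libraries of both lay inside the control range. The means were 2456 ± 150 TPM in control (SD, n = 3) and 2743 ± 308 TPM with knockdown (SD, n = 6). The log2 fold change was 0.15 (SE 0.09, 95% interval -0.05 to 0.35, limma adjusted p = 0.719). With the replicate 3 term the SE was 0.04, the interval 0.07 to 0.23 and the limma adjusted p = 0.0654, which did not pass 0.05.

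HSP90AB1 measured 3221, 3322 and 2958 TPM in the controls, 3470.5, 3458 and 2963 TPM in KHSRPi#1 and 3571, 3345 and 2858 TPM in KHSRPi#2. Its ranges overlapped between groups (log2 fold change 0.05, 95% interval -0.12 to 0.21, limma adjusted p = 0.913, and 0.470 with the replicate 3 term). The ratio of HSP90AB1 to HSP90AA1 in the same library was 1.28, 1.30 and 1.29 in the controls, 1.13, 1.22 and 1.24 in KHSRPi#1 and 1.19, 1.19 and 1.22 in KHSRPi#2. All 6 knockdown libraries were below all 3 controls in this ratio, also in replicate 3. It was 1 of 6 ratios between members that were computed, and the only one of the 6 whose groups did not overlap. This ratio was singled out after its values were seen, so no test is given. The share of other gene pairs whose ratio separates the groups was not computed. In level, 4.67% of all genes had the 6 knockdown libraries beyond all 3 controls.

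**Figure D2:**
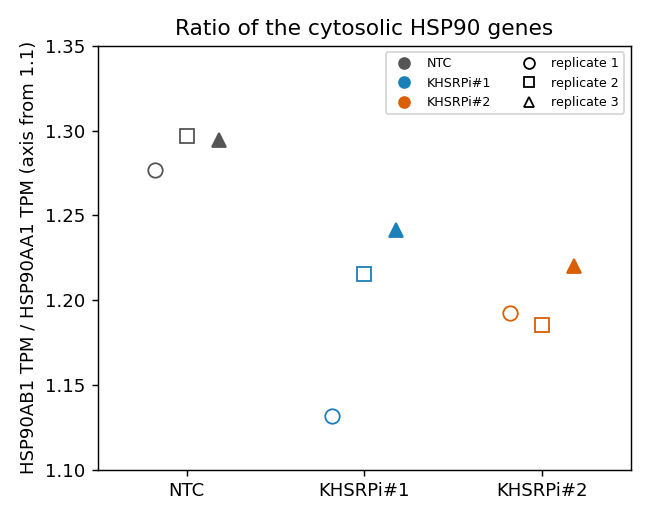
Ratio of HSP90AB1 TPM to HSP90AA1 TPM (y axis from 1.1) in each library, by group; shapes give the replicate number, and replicate 3 is filled. The controls sit between 1.28 and 1.30 and the knockdown libraries between 1.13 and 1.24.

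HSPD1, the mitochondrial HSP60 (chromosome 2, 197486581 to 197516737, minus strand), measured 1806, 1911 and 1736 TPM in the controls, 2029, 1962 and 1787 TPM in KHSRPi#1 and 2069.8, 1960.0 and 1741 TPM in KHSRPi#2. HSPE1, its HSP10 lid (197499994 to 197503457, plus strand), measured 124, 139 and 109 TPM in the controls, 152, 139 and 121 TPM in KHSRPi#1 and 124, 167 and 133 TPM in KHSRPi#2. The groups overlapped for both genes, with log2 fold changes of 0.08 (95% interval -0.05 to 0.22) for HSPD1 and 0.17 (-0.07 to 0.41) for HSPE1, and limma adjusted p = 0.782 and 0.742. With the replicate 3 term the intervals were 0.01 to 0.15 and 0.00 to 0.34 and the limma adjusted p = 0.220 and 0.289. Although they encode partners, HSPD1 was 11.7 to 16.6 times HSPE1 in TPM. Annotation places HSPE1 inside the bounds of HSPD1 on the other strand and names 26 HSPE1 and 17 HSPD1 pseudogenes, none of which is in the table, and whether counting used strand is not given, so these levels are uncertain.

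No member passed the test for KHSRP knockdown. For the mean of the knockdown groups against control limma called 0 of 10 members and 9 genes (0.0823% of all tested, KHSRP among them), and 0 members had an unadjusted p under 0.05, beside 7.93% of all genes. Log2 fold changes were above 0 for 8 of 10 members, beside 58.3% of all tested genes, and the median was 0.03 for the members and 0.02 for all tested genes. With the replicate 3 term limma again called 0 members, beside 1.76% of all genes. An unadjusted p under 0.05 then came with 3 members (HSP90AA1, DNAJA1 and HSPD1), beside 17.5% of all genes. No member had its 6 knockdown libraries beyond all 3 controls, beside 4.67% of all genes. DNAJA1, HSP90AA1, HSPD1 and HSPE1 had both knockdown libraries above the control of the same number in all 3 numbers. That was 4 of 10 members, beside 12.3% of all genes. At the digits given above, HSPE1 equalled the control in KHSRPi#2 replicate 1 and in KHSRPi#1 replicate 2. Numbers 1 and 2 are not taken to pair the samples, so this order is a description and was not tested. An exact two-sided permutation test of each member's TPM, with 84 ways to divide the libraries, gave p = 0.1667 for HSP90AA1, the lowest, to 0.8929 for HSPA1A; these divisions make no allowance for replicate 3.

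Each knockdown group was also set against the controls, which they share. KHSRPi#1 against control had 0 members called by limma (0.0548% of all genes), and KHSRPi#2 against control also had 0 (0.0548% of all genes); no member had an unadjusted p under 0.05 in either, beside 5.24% and 6.93% of all genes. With the replicate 3 term limma again called 0 members in KHSRPi#1 (0.676% of all genes) and 0 in KHSRPi#2 (0.804%). An unadjusted p under 0.05 then came with 3 members in KHSRPi#1 (HSP90AA1, DNAJA1 and HSPD1), beside 13.1% of all genes, and with 1 in KHSRPi#2 (HSP90AA1), beside 15.7%. For HSP90AA1 the log2 fold change was 0.17 in KHSRPi#1 and 0.14 in KHSRPi#2, and for HSPE1 it was 0.15 and 0.18. KHSRPi#2 minus KHSRPi#1 ran from -0.04 (DNAJA1, 95% interval -0.35 to 0.26) to 0.07 (HSPA1A, -0.18 to 0.32), and limma called 0 genes, with 1.05% of all genes and no member at an unadjusted p under 0.05.

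**Figure D3:**
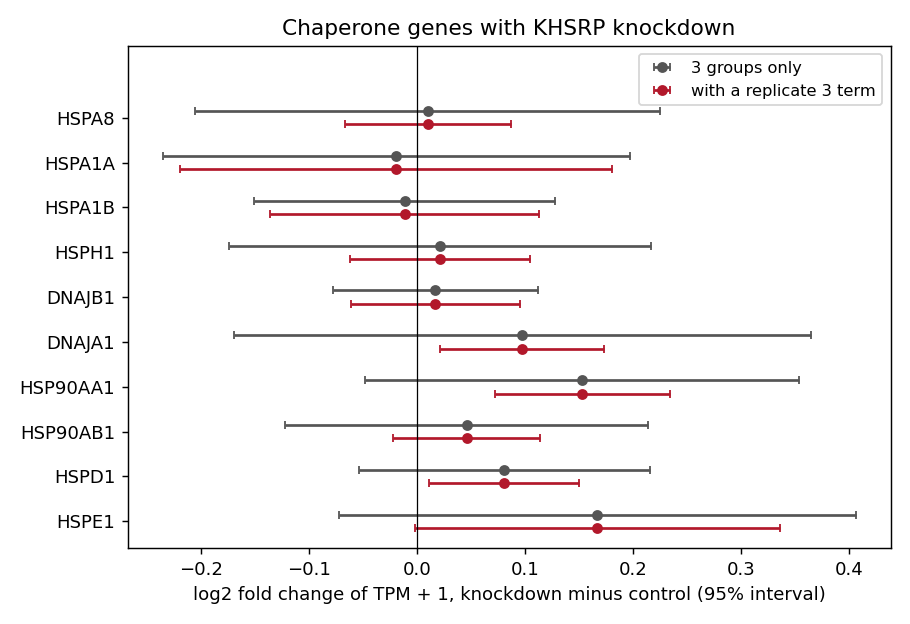
Log2 fold change of TPM + 1 (x axis) of each member (y axis) for the mean of both knockdown groups minus control; points are estimates and bars 95% intervals, grey from the 3 groups alone and red with a term for replicate 3. Without the term every interval covers 0; with it those of HSP90AA1, DNAJA1 and HSPD1 lie above 0, with adjusted p from 0.0654 to 0.220.

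The replicate 3 libraries held less of 6 members than replicates 1 and 2 in each of the 3 groups. DNAJA1 was at 79.6%, 79.2% and 74.1% of the mean of replicates 1 and 2 in NTC, KHSRPi#1 and KHSRPi#2, and HSPA8 at 83.8%, 83.0% and 79.6%. HSP90AA1 was at 89.9%, 80.7% and 80.5%. HSPH1, HSP90AB1 and HSPD1 lay between 82.6% and 93.4% in the 3 groups. In each of these 6 genes the drop was smallest in NTC and largest in KHSRPi#2, and this order was not tested. The replicate 3 term takes the same shift in every group. For all 6 of these genes the 3 replicate 3 libraries were below the other 6, beside 11.0% of all genes. The log2 differences were -0.36 for DNAJA1 (SE 0.03, limma adjusted p = 4.2e-05), -0.28 for HSPA8 (0.000195), -0.26 for HSP90AA1 (0.000478), -0.25 for HSPH1 (0.000716), -0.21 for HSP90AB1 (0.000489) and -0.16 for HSPD1 (0.00369), each with its limma adjusted p in parentheses. Limma thus called 6 of 10 members lower, beside 11.6% of all tested genes called lower and 18.7% called higher. With other scaling the split of all genes moved, from 2045 higher and 1269 lower to 1853 and 1894 by median ratio and to 1767 and 1896 by quantile. HSPD1 was not called under quantile normalization (-0.09, limma adjusted p = 0.153). Replicate 3 was singled out because its libraries stand apart in these data, so the adjusted p-values set the differences against the spread of libraries and are not independent evidence.

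HSPA1A, HSPA1B and DNAJB1, 3 of the inducible genes, did not pass this test. HSPA1A was at 98.9%, HSPA1B at 105% and DNAJB1 at 96.9% of replicates 1 and 2, with log2 differences of -0.01 (95% interval -0.21 to 0.19), 0.06 (-0.06 to 0.19) and -0.04 (-0.12 to 0.03) and limma adjusted p from 0.378 to 0.971. The sign for HSPA1B turned under quantile normalization and that for HSPA1A when both genes were summed. HSPE1 was lower by a log2 difference of -0.22 but did not pass (limma adjusted p = 0.0512). Leaving out each library gave log2 differences from -0.28 to -0.17 and limma adjusted p from 0.0014 to 0.208. The -0.28 and the 0.0014 came with KHSRPi#2 replicate 1 left out. The 5 members with a 3-unit element in a promoter window were all among the 6 that were lower, and HSPH1, the other one, had no match. Level went with it too: the 6 lower genes were also the 6 most abundant members. Whether the element or the level has a part in the difference was not tested. The sum of the 10 members was 10478 to 10790 TPM in replicate 3 and 11890 to 13186 TPM in replicates 1 and 2. The summed monocyte markers, nearly all LYZ, were also lower in replicate 3 (36.9 to 42.0 TPM, against 59.4 to 91.0 TPM), with FCGR3A at 0, and the 3 B cell markers above 0 summed to 4.90 to 5.32 TPM against 3.50 to 4.51 TPM. The summed plasmacytoid dendritic cell markers were 4307 to 4463 TPM against 3804 to 4327 TPM, a sum carried by IRF8 (2791 to 2824 TPM against 2284 to 2566 TPM). Of the 11 such markers above 0, IRF8 and CD4 had replicate 3 highest in all 3 groups, and 7 had it lowest (CLEC4C, LILRA4, GZMB, IRF7, SPIB, NRP1 and PLD4), with SPIB at 41.5 to 47.4 TPM against 55.3 to 61.4 TPM. The part of these markers in the result was not tested. In bulk RNA fewer cells of a type and less RNA per cell cannot be told apart.

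**Figure D4:**
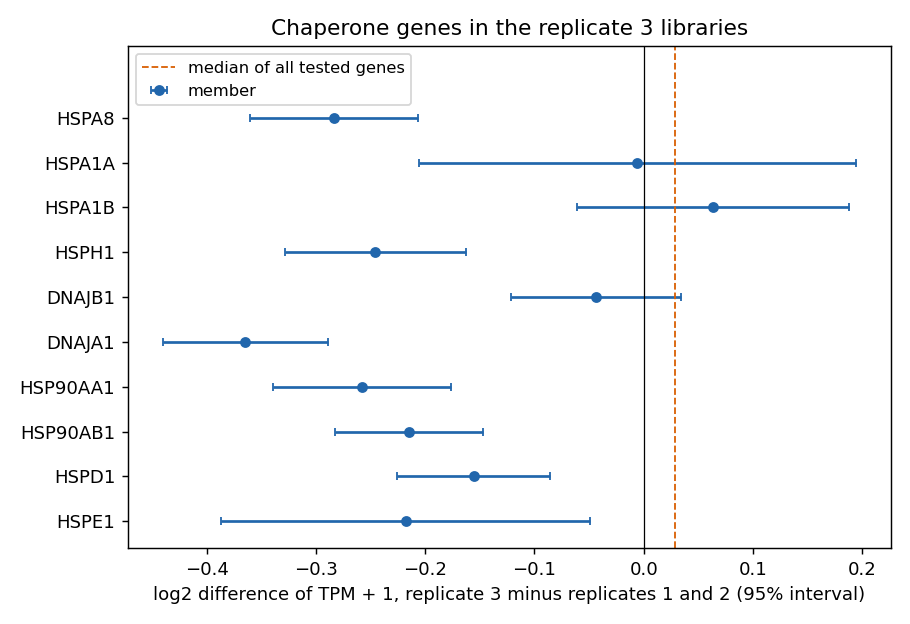
Log2 difference of TPM + 1 (x axis) of each member (y axis) between replicate 3 and replicates 1 and 2, in a fit with the 3 groups; points are estimates, bars 95% intervals, and the dashed line the median of all tested genes (0.03). The interval lies below 0 for 7 members, HSPE1 among them, and covers 0 for HSPA1A, HSPA1B and DNAJB1.

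HSPA1A was also compared between replicates 1 and 2, after its values were seen, and did not pass the test. Its replicate 1 libraries measured 11.1, 10.5 and 11.7 TPM and its replicate 2 libraries 8.98, 8.55 and 9.03 TPM, so that the 3 numbers did not overlap with each other. The log2 difference was 0.30 (SE 0.06, limma adjusted p = 0.446), and limma called 0 genes, with 3.44% of all genes and 2 of 10 members (HSPA1A and HSPA8) at an unadjusted p under 0.05. These 2 also had all replicate 1 libraries above all replicate 2 libraries, beside 1.82% of all genes. HSPA1B, from which its reads can hardly be told, had a log2 difference of 0.00, and the difference between these genes was not tested.

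Across the 6 libraries of replicates 1 and 2, the 6 genes that were lower in replicate 3 also varied together, with Pearson's r from 0.32 to 0.95 and all 15 pairs positive, beside 59.1% of all pairs of tested genes. HSPA1A with the other members ran from -0.59 to 0.89, with 7 of 9 positive. HSPD1 with HSPE1 gave r = 0.23. These correlations are a description over 6 libraries that include both control and knockdown cells. The genes outside the members whose levels were most like the members' mean over all 9 libraries were LSG1 (r = 0.98), TCP1 (0.97), ZCCHC8 (0.96), RCL1 (0.95) and EI24 (0.95). Without replicate 3 their r was 0.81 to 0.94 over 6 libraries. These 6 were among the libraries used to pick the genes, so the second range is no separate check. TCP1 is a subunit of TRiC, the cytosolic chaperonin. It measured 584 to 598 TPM in replicate 3 and 634 to 683 TPM in replicates 1 and 2.

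The wider chaperone network was read from 12 lists, which overlap and include members. In the knockdown comparison limma called 0 of the 107 tested genes of these lists, without and with the replicate 3 term; 7 and 24 of them had an unadjusted p under 0.05, beside 7.93% and 17.5% of all genes. The counts for replicate 3 that follow stand beside 11.6% of all tested genes called lower and 18.7% called higher. Of the HSP70 and HSP110 family 4 of 9 tested genes were lower and 0 higher: HSPA8, HSPH1, the mitochondrial HSPA9 (-0.20) and the ribosome-associated HSPA14 (-0.17). J-domain genes gave 7 lower and 0 higher of 21, among them DNAJC2 (-0.21), the ribosome-bound partner of HSPA14, DNAJC9 (-0.16) and DNAJB12 (-0.20), which is anchored in the ER membrane. Without DNAJB12 and its ER-anchored relative DNAJB14, left out after their values were seen, it was 6 lower of 19. TRiC gave 5 lower and 0 higher of 8, led by CCT3 (-0.23), CCT6A (-0.18), TCP1 (-0.15) and CCT2 (-0.14). Prefoldin, which passes actin and tubulin to TRiC, gave 0 of 6 in either direction, or 1 lower under median-ratio scaling, and its most abundant gene, PFDN5, averaged 782 TPM.

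HSP90 co-chaperones went both ways, with 5 lower and 2 higher of 17 tested. Of these, NUDC (-0.14) and CHORDC1 (-0.21) were lower, while FKBP8 (0.35) and FKBP5 (0.24), immunophilins of the HSP90 cycle, were higher. Under quantile normalization this list gave 3 lower and 3 higher. Exchange factors and cofactors of HSP70 gave 4 lower and 1 higher of 11, with BAG1 (-0.21), BAG2 (-0.18) and GRPEL1 (-0.13) among the lower. The higher gene was HIP1 (0.20), which shares its name with an HSP70 cofactor but encodes a clathrin adaptor. Without HIP1, left out after its value was seen, it was 4 lower and 0 higher of 10. The cofactor itself is ST13, which was not called. The mitochondrial list gave 5 lower and 1 higher of 14: HSPA9, HSPD1, DNLZ (-0.50), GRPEL1 and DNAJA3 were lower and TRAP1, the mitochondrial HSP90 (0.10), was higher, though not under median-ratio scaling (limma adjusted p = 0.0611).

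Genes of the heat shock response itself did not move as one. HSF1 averaged 47.7 TPM and was not called, and of 6 tested heat shock factors and regulators only SIRT1 (-0.15) was, or 2 genes under either other scaling. Known HSF1 targets gave 10 lower and 1 higher of 21, but 10 of these 21 are members; outside the members it was 4 lower (CHORDC1, CACYBP, AHSA1 and STIP1) and 1 higher of 11, with a median log2 difference of -0.06 beside 0.03 for all genes. Under quantile normalization the whole list gave 7 lower, and 2 of the 11 outside the members were lower, without AHSA1 and STIP1. The higher gene was HSPB1, the small heat shock protein HSP27. It measured 23.7 to 29.4 TPM in replicate 3 and 15.6 to 19.4 TPM in replicates 1 and 2 (log2 difference 0.56, limma adjusted p = 0.00018). HSPB1 was the only one called of 2 tested genes listed by symbol as small heat shock proteins, the other being HSPB11. Chaperones of the ER, which answer to the unfolded protein response rather than HSF1, gave 10 lower and 0 higher of 12. CALR (-0.55), HSPA5 (-0.47), HYOU1 (-0.37) and DNAJB11 (-0.35) led them, and CALR measured 945 to 1015 TPM in replicate 3 against 1378 to 1478 TPM in the other 6 libraries.

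**Figure D5:**
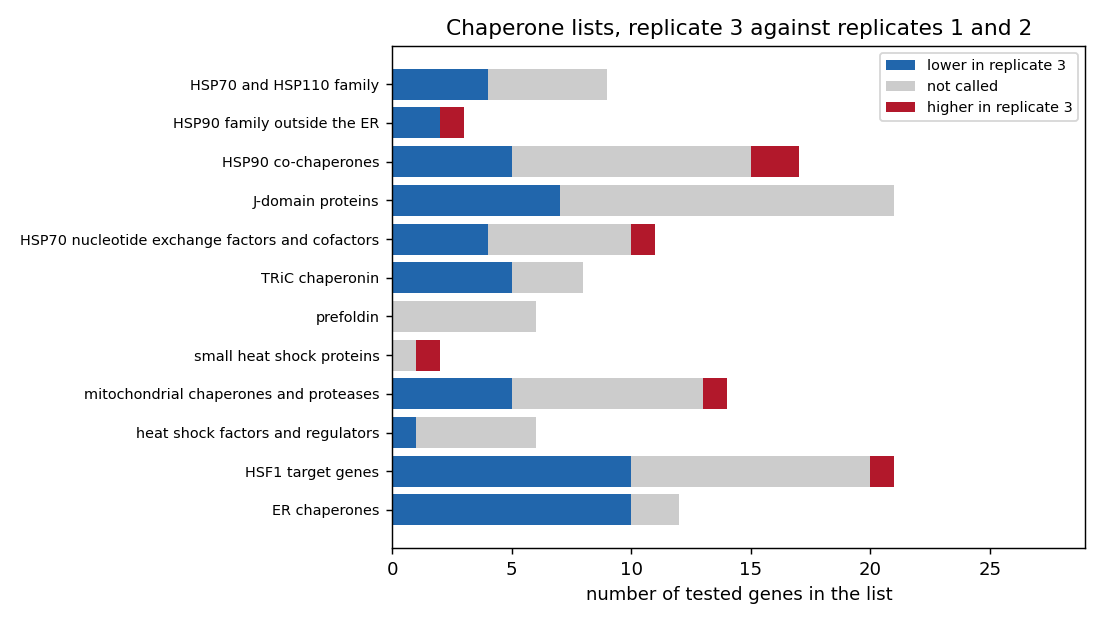
Number of tested genes (x axis) in each of 12 chaperone lists (y axis) that limma called lower (blue) or higher (red) in replicate 3 against replicates 1 and 2, or did not call (grey). ER chaperones have 10 of 12 genes lower, TRiC 5 of 8 and prefoldin 0 of 6; the 1 higher gene among the HSP70 cofactors is HIP1, which is not one by function.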

How the data were processed

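RNA sequencing of 9 CAL-1 libraries was used. The deposited table gives TPM by gene symbol as the authors made it, and every column sums to 1000000. The submitters' processing notes name hg38 as the build. The name of the deposited table holds that of the aligner STAR, without a version. Not given in the sources used here are the counting tool, the annotation and any use of strand. TPM holds no read totals, so the depth is unknown and no count model was used. The labels name no separate cultures, animals or donors for the replicates, so a p-value here covers only the variation among these libraries, which may be technical; all share 1 batch label.

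Symbols averaging at least 1 TPM (10939) were tested on log2(TPM + 1) by limma 3.58.1 (R 4.3.3), with two-sided moderated tests, an intensity trend in eBayes and Benjamini-Hochberg adjustment over all of them, and called under 0.05. All 3 groups entered 1 fit. Fold changes on this scale understate those of low genes. The replicate 3 contrast and the knockdown fit with its term add that term to the groups. The method was tested on simulated data with noise drawn independently for each gene and library. That noise held no shift shared by the replicate 3 libraries, so the test does not cover such a shift in the knockdown fits. The members and lists were chosen with earlier results of these data known. Named genes were all members, KHSRP, up to 4 called genes per list with the smallest p or else its most abundant gene, and the 5 genes most correlated with the members' mean; genes of a list's smaller direction, the HSF1 targets outside the members, DNAJA3, DNAJB14, HSF1, ST13, the cell type markers and genes listed at 0 were named after their values were seen. Positions are from GENCODE 29, promoter windows from RefSeq on GRCh38.p14, and identities from alignments with Biopython 1.88. Alternatives were pseudocounts of 0.1 and 5, no filter or a mean of at least 5 TPM, median-ratio and quantile scaling, a replicate block, fits of fewer libraries, HSPA1A and HSPA1B summed, and leaving out each library.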

Additional observations from a re-analysis of the deposited data

How the results depend on the processing

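For the knockdown mean, 0 members were called under every alternative but 1: with the replicate 3 term and without KHSRPi#2 replicate 1, HSPE1 was called (log2 fold change 0.23, limma adjusted p = 0.0378), so that leaving out a library gave 0 to 1 members. The count of all genes, 9, became 192 with the replicate 3 term, 14 in replicates 1 and 2 alone, and 3 to 202 when each library was left out without or with the term. For KHSRPi#1 the 6 genes became 74 with the term, 2 in a fit of only the groups compared and 2 to 69 without each library; for KHSRPi#2 they became 88, 3 and 3 to 138. For KHSRPi#2 against KHSRPi#1 the count of 0 became 1 with no filter, in only the groups compared and in replicates 1 and 2 alone, and 0 to 2 without each library. The replicate 3 count ran from 1799 to 3322 without each library.

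With a replicate block the counts were 152 genes for the knockdown mean, 54 for KHSRPi#1, 91 for KHSRPi#2 and 1 between them, with 0 members called. Same-numbered libraries of different groups correlated in their deviations from group means at 0.0399 to 0.628 over 9 pairs, and others at -0.487 to 0.371 over 18 pairs. Pairs of replicate 3 libraries gave 0.622 to 0.628. Pairs of number 1 gave 0.0398 to 0.324 and pairs of number 2 gave 0.208 to 0.228. Pairs of number 1 with number 2 gave 0.238 to 0.371, so numbers 1 and 2 are not taken to pair the samples.

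Small knockdown fold changes turned sign under median-ratio scaling (HSPA8 -0.0094, DNAJB1 -0.0019). Each library was also left out, without and with the replicate 3 term. The ranges were -0.0747 to 0.0678 for HSPA8, -0.0970 to 0.0567 for HSPA1A and -0.0519 to 0.0160 for HSPA1B. They were -0.0454 to 0.0703 for HSPH1, -0.00061 to 0.0443 for DNAJB1, -0.0114 to 0.177 for DNAJA1 and -0.0023 to 0.0918 for HSP90AB1. Without the term they were -0.0895 to 0.0514 for HSPA1A and 0.0039 to 0.0297 for DNAJB1. In replicate 3, HSPA1B was -0.0055 under quantile normalization and HSPA1A 0.0236 when summed with HSPA1B, and -0.0480 to 0.0463 without each library. DNAJA1, HSPA8, HSP90AA1, HSPH1 and HSP90AB1 were called lower in all 16 alternatives and HSPD1 in 15. HSPE1 was called in 3 of 16: at a mean of at least 5 TPM, without NTC replicate 1 and without KHSRPi#2 replicate 1. With the 2-unit motif 8 members in place of 5 held a heat shock element. The cause of these changes was not tested, and the unknown depth limits what can be said of HSPA1A and HSPA1B.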
